A study of Mus musculus with 9 samples.

Results

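The genes described here are the nuclear-encoded subunits of respiratory complex I and the assembly factors that share the Nduf prefix, compared between heart and quadriceps muscle of sham-operated mice. They were chosen by name alone, as every row of the quadriceps and heart count table whose gene symbol was Nduf followed by a, b, c, s, v, ab or af and a number. The rule found 46 genes with 59 RefSeq transcripts, out of 24537 gene names and 35745 transcripts in the table. For the 8 genes with several transcripts the transcript with the highest summed count was used. Of the 46 genes, 36 encode structural subunits, 8 encode assembly factors and the remaining pair is Ndufa4 and its paralog Ndufa4l2.

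The libraries came from C57Bl6 mice, given in the paper as the J substrain. The mice underwent sham surgery at 8 weeks of age, and tissue was taken 12 weeks later. The heart group holds 3 libraries and the quadriceps group holds 3 libraries, all sham controls, so each comparison below is one of tissue. A further 3 quadriceps libraries from mice with transverse aortic constriction (TAC) were not used, because the TAC table holds only secreted-protein genes and 0 of the 46 members. The labels do not say whether each library came from its own animal, nor which heart and muscle came from the same mouse, so the p-values measure the spread between these libraries.

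Complex I (NADH:ubiquinone oxidoreductase) is the entry point for NADH electrons into the respiratory chain of the inner mitochondrial membrane. Its matrix arm oxidises NADH and carries electrons through a chain of iron-sulfur clusters to ubiquinone, and its membrane arm pumps protons. The core subunits do the catalysis, the accessory subunits surround and stabilise them, and the assembly factors join the modules without being part of the finished enzyme. Heart muscle is packed with mitochondria, whereas mouse quadriceps consists largely of fast glycolytic fibres.

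Promoter sequence of 3 members is shown first, because these members are among those whose fold change kept its direction and its call under every scaling described below. Ndufb2 and Ndufc2, accessory subunits of the membrane arm, were higher in quadriceps, and Ndufa11, an accessory subunit embedded in the membrane, was lower. The sequences are from RefSeq on build GRCm38.p6, run 5′ to 3′ on the + strand up to the base before the transcription start, and leave out bases inside annotated exons. Capitals mark matches to the searched motifs, which are AAGGTCA (estrogen-related receptors) and CCAAT (NF-Y) in Ndufb2, CCAAT in Ndufc2, and GCGCATGCG (nuclear respiratory factor 1) in Ndufa11, where it was found on both strands at overlapping positions.
Ndufb2 (chr6:39592315-39592564): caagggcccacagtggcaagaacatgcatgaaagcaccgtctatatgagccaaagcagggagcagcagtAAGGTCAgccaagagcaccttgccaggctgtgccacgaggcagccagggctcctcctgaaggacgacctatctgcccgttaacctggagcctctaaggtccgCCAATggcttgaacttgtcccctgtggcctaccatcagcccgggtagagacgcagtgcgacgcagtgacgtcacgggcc
Ndufc2 (chr7:97399753-97400002): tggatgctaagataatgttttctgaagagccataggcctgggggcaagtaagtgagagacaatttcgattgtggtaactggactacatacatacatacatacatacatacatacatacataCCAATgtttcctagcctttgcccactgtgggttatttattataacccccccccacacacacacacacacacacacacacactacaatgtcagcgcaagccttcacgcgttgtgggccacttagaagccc
Ndufa11 (chr17:56717700-56717761): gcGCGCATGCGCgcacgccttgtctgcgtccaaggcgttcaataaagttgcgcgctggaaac

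The 6 motifs were searched on both strands of windows from 250 bases before to 50 bases after each start, in 42 promoters of 40 member genes and in the promoters of all 27025 mouse genes of the RefSeq table, a gene counting once if any of its promoters held the motif. The nuclear respiratory factor 1 motif GCGCATGCG was in 4 member genes (10%) and in 1.95% of all genes, and the 4 genes were Ndufa8, Ndufa11, Ndufaf4 and Ndufaf5. The YY1 motif ATGGCGGC was in 7 member genes (17.5%) against 2.605% of all genes, Ndufs4 and Ndufa7 among them. The Sp1 motif GGGCGG was in 21 member genes (52.5%) against 38.2%, and the GA-binding protein motif CCGGAAG in 6 (15.0%) against 9.93%. The motif CCAAT was in 14 member genes (35.0% against 41.1% of all genes) and AAGGTCA in 3 (7.5% against 5.38%). The 4 genes with GCGCATGCG went in different directions between the tissues, since Ndufa8 and Ndufa11 were lower in quadriceps, Ndufaf5 was higher and Ndufaf4 was not called. A match describes letters in a window and says nothing of binding.

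The libraries held between 23383452 and 38382751 counts, the lowest being quadriceps replicate 3. The marker genes matched the labelled tissues. All 8 cardiomyocyte markers were lower in quadriceps, and Myh6, the cardiac myosin heavy chain, fell from 18389 ± 1045 CPM (counts scaled to a common library size with the TMM factors explained below) in heart to 3.12 ± 0.186 in quadriceps (mean ± SD, n = 3 each). Among these markers the heart libraries were uneven for Myl7, at 43.6, 3.26 and 0.0699 CPM in replicates 1, 2 and 3. For Nppa they gave 457, 398 and 186 CPM. All 8 fast-fibre markers were higher in quadriceps, and Myh4, the IIb myosin heavy chain, went from 0.824 ± 0.199 to 30317 ± 9723 CPM. Of 6 slow-fibre markers, several of which the heart also uses, 4 were lower in quadriceps, down to Myl2 (log2 fold change -5.23), and 2 were higher, up to Tnni1 (7.66). Markers of other cells also differed: 6 of 6 endothelial, 4 of 6 fibroblast, 4 of 6 mural cell and 5 of 6 leukocyte markers were lower in quadriceps. Of all transcripts, 34.4% were called lower and 32.2% higher in quadriceps. Adipocyte genes were higher there for 5 of 6 markers, with Adipoq at 43.5, 17.8 and 5.31 CPM in quadriceps replicates 1, 2 and 3 and at 0.546, 0.258 and 0.163 CPM in heart. The summed CPM of the 6 adipocyte markers, mostly Fabp4, were 235, 285 and 305 in heart and 481, 237 and 193 in quadriceps. Each library is a whole tissue, so fewer cells of a type and less RNA per cell cannot be told apart, and the part of these cell types in the results below was not tested.

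As a share of all counts, complex I was the larger in heart. The 46 members together made up 0.754, 0.739 and 0.775% of the counts of the heart libraries and 0.536, 0.461 and 0.429% of those of the quadriceps libraries, with no overlap between the tissues. The totals sum all transcripts, so reads shared by several transcripts of a gene can count more than once, whereas each member entered with a single transcript. The denominators also differed in make-up between the tissues. A set of 25 transcripts that each exceeded 1% of some library, among them the abundant contractile genes, took 7.08 to 7.47% of heart counts and 31.7 to 37.2% of quadriceps counts. Both kinds of scaling are therefore given for the groups of members. The main test used trimmed mean of M-values (TMM) factors, which compare each transcript with the bulk of the others, and library totals are given as the second. Going from TMM to library totals moved the median of all 24280 tested transcripts from -0.06 to -0.80 on the log2 scale and moved the single members by 0.73 to 0.76 downwards.

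With TMM scaling the members lay on both sides of equality. All 46 passed the filter on low counts, and edgeR's quasi-likelihood F test, with p-values adjusted over all transcripts by Benjamini-Hochberg, called 10 members lower and 18 higher in quadriceps than in heart, at an adjusted p under 0.05. Of all transcripts tested, 34.4% were called lower and 32.2% higher. The median log2 fold change of the members was 0.12, and that of all transcripts was -0.06. The members lay closer together than transcripts in general, with quartiles of -0.27 and 0.53 against -0.86 and 0.65, and 39 of the 46 lay within 1 log2 unit of equality. All transcripts include some with few reads, and the members were not compared with transcripts of like abundance. The 3 quadriceps values lay wholly below the 3 heart values for 13 members and wholly above for 20, and such separation was found downwards for 38.3% and upwards for 34.2% of all transcripts. No member was lower by more than 2 log2 units and only Ndufaf6 was higher by that much, where 8.64% and 7.00% of all transcripts passed this size with an unadjusted p under 0.05. Among the 19432 transcripts with at least 10 counts in every library, 839 passed it downwards and 861 upwards. With library totals 32 members were called lower and 4 higher, against a background of 62.6% and 13.3%, and the members' median became -0.63. With totals without the 25 abundant transcripts 17 members were lower and 10 higher, against 43.7% and 24.3% of all transcripts. With limma on log2(RPKM + 0.1, 0.5 or 1) 32 were lower and 5 higher each time, against 63.3, 63.1 and 63.1% called lower and 13.3, 13.2 and 13.2% called higher of all transcripts.

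**Figure D1:**
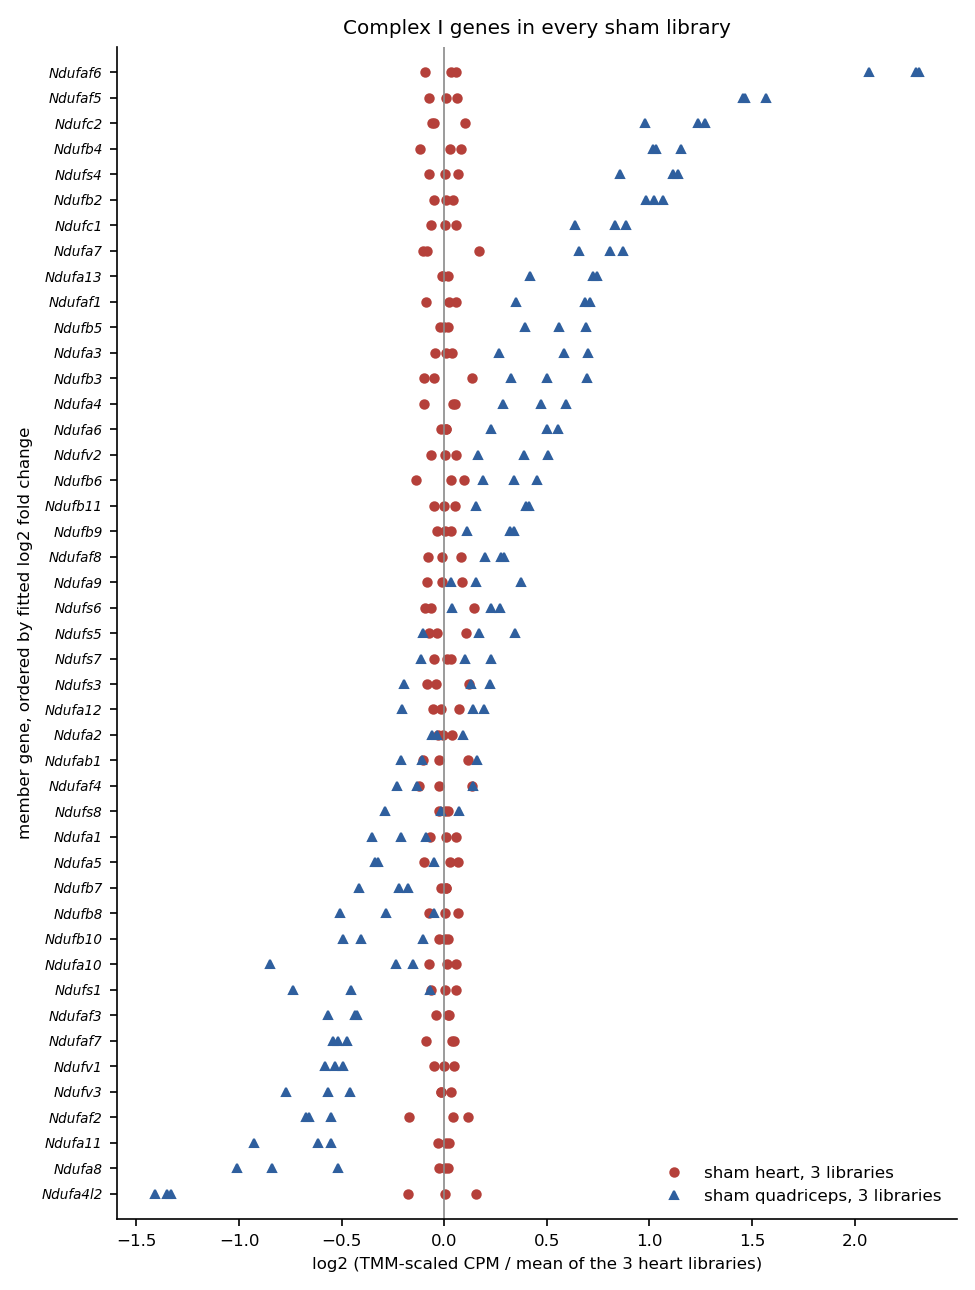
Each of 45 rows is a member gene and each point a library, placed at the log2 ratio of its TMM-scaled CPM to the mean of the 3 heart libraries (red circles, heart; blue triangles, quadriceps). The quadriceps points run from below -1.0 for Ndufa4l2 to above 2.0 for Ndufaf6, and their SD of log2 CPM was the wider for 36 of all 46 members.

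The spread between replicates was larger in quadriceps. The median SD of log2 CPM over the members was 0.0673 in heart and 0.158 in quadriceps, and over the 17178 transcripts above 1 CPM in every library it was 0.0835 and 0.191. Ndufs1 and Ndufa10 had the widest quadriceps values of the members. A small difference is therefore limited by the muscle libraries.

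Among the core subunits described here, which hold the cofactors and the substrate sites, a gene of the NADH-oxidising module was the lowest. Ndufv1, which binds NADH and the flavin cofactor, stood at 317, 307 and 328 CPM in heart and at 219, 225 and 212 CPM in quadriceps. The tissues did not overlap, and Ndufv1 was 1.45-fold lower in quadriceps (log2 fold change -0.54 ± 0.10 SE, adjusted p = 0.00108). Its partner Ndufv2, which carries an iron-sulfur cluster, went the other way with TMM scaling, from 391, 373 and 407 CPM in heart to 554, 511 and 437 CPM in quadriceps (0.36 ± 0.12, adjusted p = 0.0267). With library totals Ndufv2 was lower in quadriceps (-0.38, adjusted p = 0.0317), so its direction depends on the scaling and that of Ndufv1 does not (-1.29 with library totals). Ndufs1, the largest core subunit of the matrix arm, had 460, 439 and 478 CPM in heart and 438, 275 and 335 CPM in quadriceps, and its difference of -0.39 ± 0.16 was not called with TMM (adjusted p = 0.0588). It was called lower with upper-quartile factors (-0.48, adjusted p = 0.0257), with totals without the 25 abundant transcripts (-0.65, adjusted p = 0.0106) and with library totals (-1.13, adjusted p = 0.00121). Quadriceps replicate 1 of Ndufs1 lay just under the lowest heart library while the other 2 were well below. Over the fits without 1 library the difference of Ndufs1 ran from -0.56 to -0.25.

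Ndufs3, Ndufs7 and Ndufs8, core subunits of the ubiquinone-binding module, differed little between the tissues with TMM scaling. Their log2 fold changes ran from -0.07 to 0.08, and none was called by edgeR or by DESeq2, nor did any have an unadjusted p under 0.05. Ndufs7 stood at 103 ± 3.07 CPM in heart and 108 ± 12.6 in quadriceps, and the iron-sulfur subunit Ndufs8 at 58.8 ± 0.926 and 56.0 ± 7.06. Ndufs3 gave 46.1 ± 3.49 and 48.2 ± 7.07 CPM. The tissues overlapped for all 3. With library totals these genes were all called lower in quadriceps, from -0.81 for Ndufs8 to -0.68 for Ndufs7, and limma on log2 RPKM values, which are scaled to library totals, also called all 3 lower. Of all transcripts, 62.6% were called lower with library totals and 63.1 to 63.3% with limma.

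**Figure D2:**
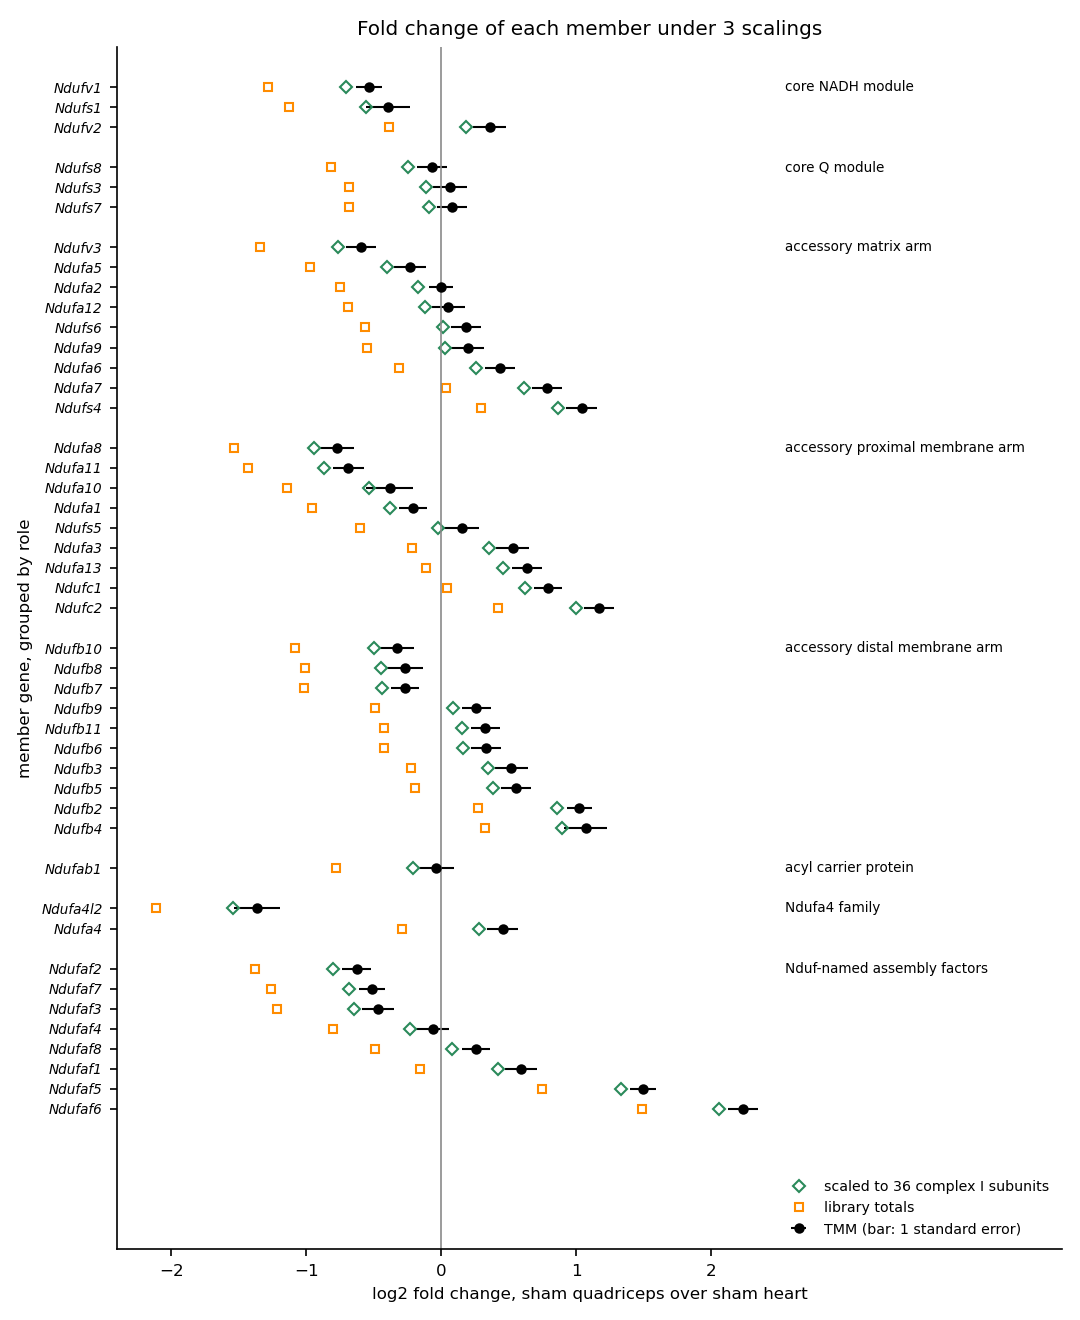
Log2 fold change of quadriceps over heart for 45 members, grouped by role, with TMM scaling (black, bars 1 standard error), with size factors from 36 complex I subunits (green diamonds) and with library totals (orange squares). The 3 scalings shift all members by nearly the same step, so the main difference between the scalings is where the zero line falls among the members.

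The accessory subunits of the matrix arm included one of the largest differences. Of 9 genes, 3 were higher, 1 was lower and 5 were not called with TMM scaling, and with library totals 7 were lower and 0 higher. Of all transcripts, 32.2% were higher and 34.4% lower with TMM, and 13.3% and 62.6% with library totals. Ndufs4, a small subunit needed for a stable NADH module and mutated in Leigh syndrome, stood at 167, 159 and 175 CPM in heart and at 367, 361 and 302 CPM in quadriceps. All quadriceps values were above all heart values, and Ndufs4 was 2.06-fold higher (1.04 ± 0.12, adjusted p = 4.01e-05). With library totals the difference was 0.29 and was not called (adjusted p = 0.0580). Ndufa7 and Ndufa6 were the other higher genes, at 0.78 and 0.44. With library totals Ndufa7 was at 0.03 and was not called, and Ndufa6 was called lower (-0.31, adjusted p = 0.0400). Ndufv3, a subunit at the tip of the NADH module, was the lower gene. It had 235, 227 and 227 CPM in heart and 155, 167 and 134 CPM in quadriceps (-0.59 ± 0.11, adjusted p = 0.00118). Ndufa2, Ndufa5, Ndufa9, Ndufa12 and Ndufs6 lay between -0.23 and 0.20 and were not called, Ndufa9 being the subunit that resembles short-chain dehydrogenases.

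Of 9 accessory subunits at the proximal part of the membrane arm, 4 were higher and 2 lower with TMM scaling, against 1 higher and 5 lower with library totals. These counts lie near the shares of all transcripts, which were 32.2% and 34.4% with TMM and 13.3% and 62.6% with library totals. Ndufc2 had the largest difference of any structural subunit with TMM, whereas with library totals it was at 0.42 and the largest was that of Ndufa8 (-1.53). Its CPM were 41.9, 41.6 and 46.5 in heart and 105, 102 and 85.3 in quadriceps, without overlap, and it was 2.25-fold higher in quadriceps (1.17 ± 0.11, adjusted p = 1.47e-05). Ndufc1, Ndufa13 and Ndufa3 were higher by 0.79, 0.64 and 0.53, and with library totals they were at 0.04, -0.11 and -0.21, none of them called. Ndufa8, a twin CX9C protein of the intermembrane space, had the lowest fold change of the structural subunits, with 89.1, 88.0 and 86.4 CPM in heart and 43.7, 61.4 and 49.1 CPM in quadriceps (-0.77 ± 0.13, adjusted p = 0.000562). Ndufa11 followed with 78.9, 79.6 and 76.8 CPM in heart and 53.5, 51.3 and 41.3 CPM in quadriceps (-0.69 ± 0.12, adjusted p = 0.000570). Neither gene had overlapping groups. Ndufa10, related to nucleoside kinases, had 401 ± 18.5 and 308 ± 75 CPM. Its difference of -0.38 ran from -0.48 to -0.17 over the fits without 1 library and was not called (adjusted p = 0.0802). Ndufa1 (-0.21) and Ndufs5 (0.15) were not called either.

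At the distal end of the membrane arm 6 of the 10 accessory subunits were higher in quadriceps, 2 were lower and 2 were not called with TMM scaling, where 32.2% and 34.4% of all transcripts were called higher and lower. With library totals the counts were 1 higher and 6 lower, near the 13.3% and 62.6% of all transcripts, and 8 of the 10 fold changes were negative. The ones higher with TMM were Ndufb2, Ndufb3, Ndufb4, Ndufb5, Ndufb6 and Ndufb11, from 0.33 to 1.07. Ndufb2 had the tightest values of the large differences, at 40.9, 39.2 and 41.9 CPM in heart and 82.5, 85.1 and 80.5 CPM in quadriceps, and was 2.03-fold higher (1.02 ± 0.09, adjusted p = 8.11e-06). Ndufb4 was 2.10-fold higher but rested on few reads, with 60, 73 and 60 reads counted in the heart libraries and 83, 67 and 49 in those of quadriceps (1.07 ± 0.16, adjusted p = 0.000293). Ndufb7 and Ndufb10, twin cysteine-motif proteins facing the intermembrane space, had differences of -0.27 and -0.32, close to the threshold (adjusted p = 0.0427 and 0.0454). Both calls were lost with relative log expression factors (adjusted p = 0.0685 and 0.0709), and over all alternatives the adjusted p reached 0.186 for Ndufb7 and 0.196 for Ndufb10. Ndufb8 (-0.27, adjusted p = 0.0955) and Ndufb9 (0.26, adjusted p = 0.0597) were not called. Over the fits without 1 library Ndufb8 ran from -0.36 to -0.14. Ndufab1, the mitochondrial acyl carrier protein that binds complex I in more than one place, had 6.94 ± 0.540 CPM in heart and 6.73 ± 0.919 in quadriceps (adjusted p = 0.823), and with library totals it was called lower (-0.78, adjusted p = 0.00205). With library totals Ndufb2 was the gene still called higher (0.27), Ndufb4 was at 0.32 and not called, Ndufb3 and Ndufb5 turned to -0.23 and -0.19 and were not called, and Ndufb6 and Ndufb11 were called lower, both at -0.42.

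With TMM scaling the widest differences of all were those of assembly factors. Of 8 Nduf-named factors, 3 were higher, 3 were lower and 2 were not called, shares near those of all transcripts (32.2% and 34.4%), and with library totals 2 were higher and 5 lower, against 13.3% and 62.6%. Ndufaf6, a mitochondrial protein related to phytoene synthases that is needed early in assembly, had 5.44, 4.99 and 5.54 CPM in heart and 26.3, 26.5 and 22.4 CPM in quadriceps. It was 4.71-fold higher in quadriceps (2.24 ± 0.11, adjusted p = 2.08e-07), the largest change among the 46 with TMM. With library totals Ndufaf6 was at 1.49, and Ndufa4l2 (-2.11) and Ndufa8 (-1.53) had larger changes. Ndufaf5, a methyltransferase-like enzyme that hydroxylates an arginine of Ndufs7, went from 16.9, 16.0 and 17.6 CPM to 49.97, 46.5 and 46.2 CPM (1.498 ± 0.096, adjusted p = 1.03e-06). In both genes the lowest quadriceps library exceeded the highest heart library by more than the replicate spread. Ndufaf1, a member of the assembly complex that builds the membrane arm, was higher by 0.59 ± 0.12 (adjusted p = 0.00169), but with library totals it was at -0.15 and was not called. Ndufaf2, Ndufaf3 and Ndufaf7 were lower, Ndufaf2 with 21.0, 19.9 and 17.2 CPM in heart and 12.3, 13.2 and 12.2 CPM in quadriceps (-0.63 ± 0.11, adjusted p = 0.000756). Ndufaf7, a mitochondrial arginine methyltransferase, was lower as well (-0.51, adjusted p = 0.00117). Ndufaf3 and Ndufaf4 act together in building the ubiquinone module, and here Ndufaf3 was lower (-0.47, adjusted p = 0.00586) while Ndufaf4 was not called (-0.06, adjusted p = 0.665). Ndufaf8, the partner of Ndufaf5, stood at 8.08 ± 0.456 CPM in heart and 9.65 ± 0.332 in quadriceps (0.26, adjusted p = 0.0518).

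Assembly factors without the Nduf name were examined from a list of 12, of which 11 were tested. In quadriceps 5 were higher, 2 lower and 4 not called, with a median of 0.30, where 32.2% of all transcripts were higher and 34.4% lower. Tmem126a was highest at 22.8 ± 0.282 CPM in heart and 50.9 ± 7.06 in quadriceps (1.16), followed by Tmem70 at 34.6 ± 2.58 and 72.2 ± 11.4 CPM (1.06). Foxred1, an oxidoreductase-like factor, was lowest (-0.64), with 24.2 ± 0.513 and 15.5 ± 2.46 CPM, and Nubpl, which delivers iron-sulfur clusters, was lower too (-0.54). Acad9 and Ecsit, which work with Ndufaf1, lay at 0.07 and 0.00 and were not called. With library totals 1 of the 11 was higher and 7 were lower, near the 13.3% and 62.6% of all transcripts.

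Ndufa4 and Ndufa4l2 went in opposite directions with TMM scaling. Ndufa4, named for complex I but now regarded as a subunit of cytochrome c oxidase, had 173, 157 and 174 CPM in heart and 254, 233 and 204 CPM in quadriceps (0.46 ± 0.12, adjusted p = 0.00625). Library totals turned its sign (-0.29, adjusted p = 0.0731). Ndufa4l2, a paralog known to be induced in hypoxia, had 3.02, 3.80 and 3.42 CPM in heart and 1.29, 1.34 and 1.36 CPM in quadriceps. These groups did not overlap, and Ndufa4l2 was 2.58-fold lower in quadriceps (-1.36 ± 0.17, adjusted p = 8.30e-05), on 24 to 35 counts per quadriceps library. It is the lowest of the 46 members. The 6 mural cell markers were examined beside it: Notch3 (-2.08), Cspg4 (-1.52), Pdgfrb (-1.44) and Kcnj8 (-0.94) were lower in quadriceps, while Rgs5 (-0.01) and Abcc9 (0.05) were not called. Their summed CPM, mostly Rgs5, were 542, 607 and 517 in heart and 541, 451 and 521 in quadriceps. No mural marker was at 0 in any library, and the part of these cells in the value for Ndufa4l2 was not tested.

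A second fit asked which members departed from complex I itself, with size factors from the median of ratios over the 36 structural subunits. On this scale each member lay 0.15 to 0.18 log2 units lower than with TMM. It called 15 members lower and 13 higher, where 39.1% and 25.5% of all transcripts were called, so these counts are near the background and single members carry the description. All 10 members called lower and 13 of the 18 called higher with TMM kept their call. A near-constant shift downwards largely fixes that lower calls stay, and the structural subunits were tested on a scale that they set. Ordered by adjusted p, the first departures upwards were Ndufaf6 (2.06 ± 0.12, adjusted p = 1.91e-07), Ndufaf5 (1.33 ± 0.12, adjusted p = 5.68e-06), Ndufc2 (0.996 ± 0.116, adjusted p = 3.39e-05), Ndufb2 (0.86 ± 0.12) and Ndufs4 (0.87 ± 0.12). The first downwards were Ndufa4l2 (-1.54 ± 0.19, adjusted p = 5.64e-05), Ndufa11 (-0.86 ± 0.12, adjusted p = 0.000134), Ndufa8 (-0.94 ± 0.15), Ndufv3 (-0.77 ± 0.12) and Ndufaf2 (-0.80 ± 0.14). Ndufb4 departed by 0.89 ± 0.18, with a larger adjusted p of 0.00141 on its few reads. Ndufs1, Ndufa10, Ndufb8, Ndufa5 and Ndufa1 were called lower on this scale but not with TMM. Ndufs3, Ndufs7 and Ndufs8 did not depart by a called amount, with Ndufs8 at -0.24. Size factors from summed subunit counts instead gave 13 lower and 17 higher members (35.5% and 29.6% of all transcripts). Those from complexes I to V gave 11 lower and 18 higher (34.2% and 29.8%). Leaving out heart replicate 1 reduced the lower calls from 15 to 9, while the share of all transcripts called lower went from 39.1% to 34.2%. Without heart replicate 2 the lower calls were 10 (33.8% of all transcripts), and without heart replicate 3 they were 11 (36.3%).

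Across 5 scalings of the counts (TMM, relative log expression, upper quartile, library totals, and totals without the 25 abundant transcripts), 12 members were called in the same direction each time. Of all transcripts, 33.6% were called lower and 13.3% higher in each of the 5. The 4 members called higher were Ndufb2, Ndufc2, Ndufaf5 and Ndufaf6. The 8 members called lower were Ndufv1, Ndufv3, Ndufa8, Ndufa11, Ndufaf2, Ndufaf3, Ndufaf7 and Ndufa4l2. Of all 46 members, 26 kept their sign in the 5 scalings, 18 below 0 and 8 above, and 20 changed it. With library totals the differences of the 4 higher genes were 0.27 for Ndufb2, 0.42 for Ndufc2, 0.75 for Ndufaf5 and 1.49 for Ndufaf6.

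Levels per transcript length were compared on the deposited RPKM values (reads per kilobase, scaled to the library total), as deposited. In heart the members ranged from 3.96 to 792 RPKM with a median of 126, and in quadriceps from 1.07 to 425 RPKM with a median of 84.3. The order was similar in both tissues (Spearman's rho 0.94 across 46 genes, which are not independent and share libraries). By the chosen transcripts Ndufa5, Ndufb10 and Ndufb9 were the most abundant in heart, with 792 ± 41.8, 739 ± 8.20 and 596 ± 18.1 RPKM. In quadriceps Ndufb9 (425 ± 54.7 RPKM), Ndufa5 (404 ± 76.1) and Ndufa4 (367 ± 60.6) came first, and these 3 did not differ beyond their spread. The assembly factors were far lower, with a median of 13.0 RPKM in heart and 13.9 in quadriceps, against 167 and 109 for the structural subunits. Ndufaf6 moved from rank 44 in heart (6.45 ± 0.311 RPKM) to rank 35 in quadriceps (18.05 ± 2.31). Ndufv1 fell from rank 12 (258 ± 7.85 RPKM) to rank 20 (106 ± 7.49) and Ndufc1 went from rank 13 to rank 5. The mean RPKM was lower in quadriceps for 38 of the 46.

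**Figure D3:**
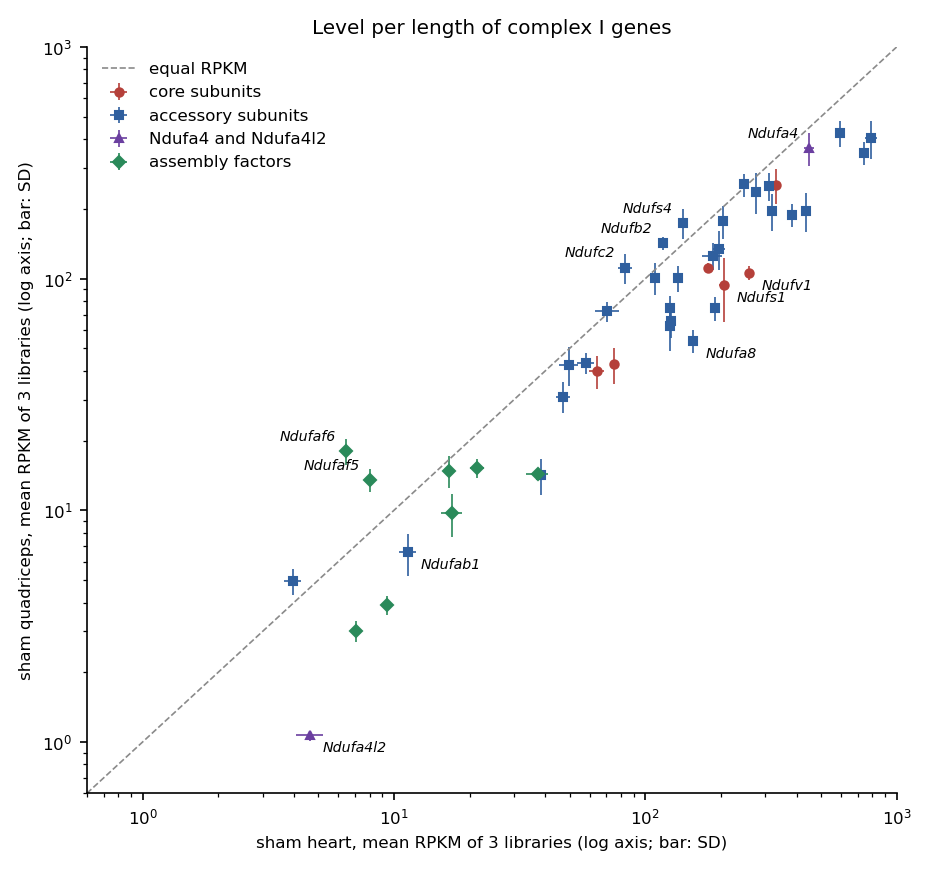
Mean RPKM in heart (x) against quadriceps (y) for 45 members on log axes, bars 1 SD over 3 libraries, with the line of equal RPKM dashed. Most genes lie under the line, and the assembly factors Ndufaf5 and Ndufaf6 lie above it.

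Of the members, 8 had more than one transcript in the table, and in most of these the transcripts moved alike. The 4 Ndufs1 transcripts all gave -0.39. Ndufa7 was the exception. Its chosen transcript (0.78) and a non-coding one of 474 bases (0.81) were higher in quadriceps, whereas non-coding transcripts of 694 and 758 bases gave 0.11 and 0.16 and were not called. For Ndufb8 the chosen transcript is 2152 bases long and gave 126 ± 5.48 RPKM in heart and 62.5 ± 13.9 in quadriceps, and the other one, 634 bases long with nearly the same counts, gave 414 ± 17.4 and 202 ± 41.0 RPKM. Ndufv3 likewise gave 189 ± 2.31 RPKM in heart on its chosen transcript of 1573 bases and 595 ± 5.20 on one of 482 bases, level with Ndufb9, so the ranks of these genes depend on the transcript. Summing RPKM over the transcripts of a gene raised the members' median from 126 to 149 in heart and from 84.3 to 111 in quadriceps. The 4 Ndufs1 transcripts held 21768 to 21903 counts each in heart replicate 1, so such a sum largely counts the same reads again.

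Short reads cannot always be placed uniquely, so windows of 50 bases in the members' transcripts were compared with the transcripts of all other genes. The windows came from a GENCODE transcript with the same RefSeq accession, whose length can differ from that of the counted transcript. Ndufaf5 had 1117 windows for a counted transcript of 2719 bases and Ndufa11 had 496 for 2655, so parts of both were not searched. Ndufb4 had 922 windows for 449 counted bases, so its share below need not hold for the counted transcript. For 24 members no window was shared, among them Ndufaf5, Ndufaf6, Ndufc2, Ndufs4, Ndufa8, Ndufv1, Ndufv3 and Ndufa4l2. For 13 members over 10% of windows were shared, with 53.8% for Ndufa12, 41.2% for Ndufs5, 39.7% for Ndufs3, 37.0% for Ndufb4, 34.1% for Ndufb6, 33.5% for Ndufb2 and 12.5% for Ndufa11, and the values of these genes are uncertain to that extent. Exons of 17 members overlap a gene on the opposite strand, including Ndufb2 with Braf, Ndufa11 with Vmac and Ndufa4l2 with Shmt2. Whether the counting used strand was not given in the sources used here, so reads of the partners cannot be told apart. Positions of members with large differences and no shared window are given on GRCm38.p6, where Ndufaf6 lies on the - strand at chr4:11048991-11076237 with 9 exons, Ndufaf5 on the + strand at chr2:140170584-140218965 with 11 exons, Ndufc2 on the + strand at chr7:97400003-97407800 with 3 exons, Ndufs4 on the - strand at chr13:114287795-114388094 with 5 exons, and Ndufv1 on the - strand at chr19:4007499-4012755 with 10 exons.

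The other respiratory complexes were described by the same fit. The median log2 fold change was 0.12 for the 36 complex I subunits, -0.31 for 4 subunits of complex II, 0.05 for 9 of complex III, -0.40 for 16 of complex IV and -0.06 for 15 of complex V. In complex II, Sdhc (-0.69) and Sdhb (-0.30) were lower. In complex III, 3 genes were lower and 2 higher, from Uqcrc1 (-1.01), a core protein, to Uqcrq (1.22), a small subunit. Complex IV had the widest range, with 7 lower and 4 higher. Its extremes were Cox4i2 (-2.01), an isoform linked to hypoxia, and Cox7c (2.44), both low in reads in at least one tissue, with Cox4i2 at 4.32 ± 0.481 CPM in heart and 1.08 ± 0.333 in quadriceps and Cox7c at 3.07 ± 0.598 and 16.6 ± 2.23. In complex V, 4 were lower and 5 higher, from Atp5g1 (-1.30) to Atp5l (0.83). With library totals complex II had 4 lower and 0 higher genes, complex III 8 and 1, complex IV 13 and 2, and complex V 11 and 0. Of all transcripts 34.4% were lower and 32.2% higher with TMM, and 62.6% and 13.3% with library totals, so mostly lower counts are also the background there. Differences between the complexes' medians were not tested. With library totals the 5 medians became -0.63, -1.06, -0.69, -1.14 and -0.82.

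**Figure D4:**
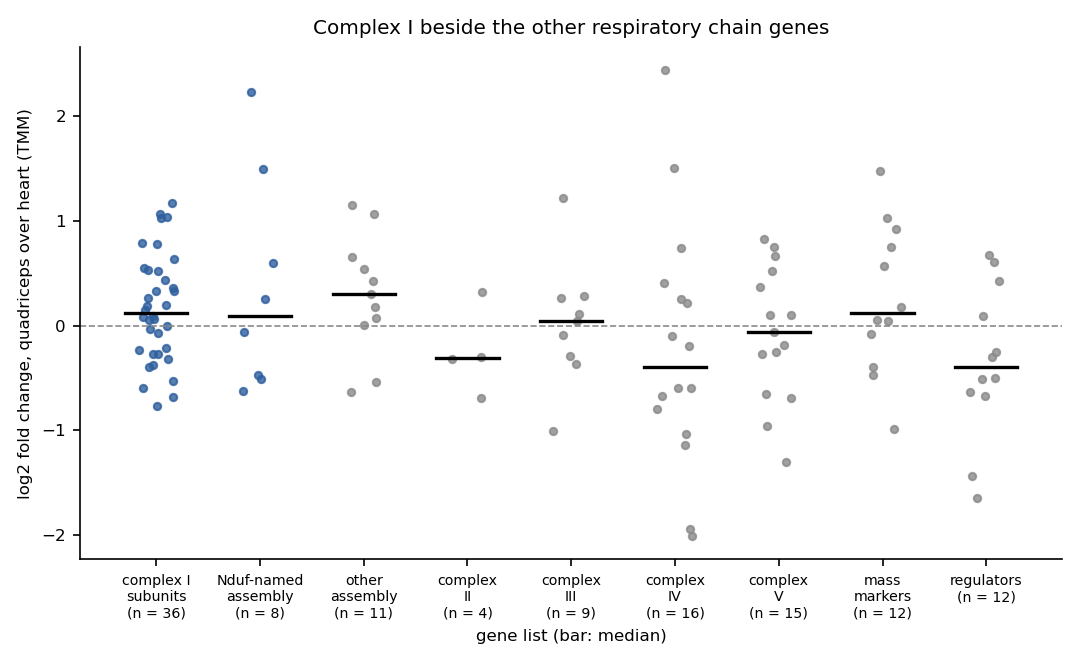
Log2 fold change of quadriceps over heart with TMM scaling, each point a gene and each bar a list's median, for complex I (blue) and other respiratory and mitochondrial lists (grey). The complex I subunits lie between -0.77 and 1.17, and genes of complex IV reach -2.01 and 2.44.

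Genes used as a gauge of mitochondrial content did not all go one way. Of 12, 4 were higher in quadriceps, 3 lower and 5 not called, with a median of 0.12, and with library totals 2 were higher and 7 lower, with a median of -0.63. Of all transcripts, 32.2% were higher and 34.4% lower with TMM, and 13.3% and 62.6% with library totals, so these counts are near the background. Cs, citrate synthase of the matrix, stood at 546 ± 16.7 CPM in heart and 415 ± 36.02 in quadriceps (-0.39), and Tomm40, the channel of the outer-membrane import machinery, was lowest (-0.99). Vdac3 (1.48) and Vdac1 (0.75), outer-membrane channels, were higher, and with library totals Vdac3 was at 0.73 and Vdac1 was not called (adjusted p = 0.9998). Among 12 regulators of respiratory genes 5 were lower, 3 higher and 4 not called, where 34.4% of all transcripts were lower and 32.2% higher. Ppargc1b was lowest (-1.65), with 10.5 ± 1.38 and 3.35 ± 0.528 CPM, and Ppargc1a, the coactivator that drives mitochondrial biogenesis, was lower as well (83.7 ± 6.70 and 54.0 ± 7.53 CPM, -0.63). Tfam, which maintains mitochondrial DNA, was highest (0.68), and Esrra, the estrogen-related receptor alpha, was higher by 0.61 while its relative Esrrb was lower (-1.44). Nrf1 (0.10) and Gabpa (-0.30), whose motifs were searched above, were not called, and Yy1 was higher by 0.42. With library totals 10 of these regulators were lower and 0 higher, against 62.6% and 13.3% of all transcripts. Yy1 was then called lower (-0.33, adjusted p = 0.00923), while Esrra at -0.14 and Tfam at -0.07 were not called.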

How the data were processed

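RNA sequencing of 3 sham heart and 3 sham quadriceps libraries was used, with libraries made by a kit and sequenced as single reads of 50 bases. The paper, describing quadriceps, states that mRNA was first purified from total RNA. Reads were trimmed (Trim Galore) and mapped to mm10 (STAR) by the authors, who used Rsubread to make the deposited raw counts, 1 row per RefSeq transcript, and deposited RPKM values that equal the counts divided by transcript length and column total. Columns of the authors' log2 fold changes and p-values were not used. The filter of the study, over 5 counts in 2 or more libraries, kept 24280 transcripts, and edgeR 4.0.16 was run in R 4.3.3 with TMM factors, quasi-likelihood tests and Benjamini-Hochberg adjustment over all of them. Standard errors were taken from the F statistic. The complex I scaling used 36 subunits with at least 10 counts in every library. DESeq2 1.42.0, limma 3.58.1 on log2(RPKM + 0.1, 0.5 or 1), other factors and filters, and leaving out each library were the alternatives. The code of the fits was run on simulated counts with known changes. Promoters came from RefSeq and overlaps from GENCODE, both on GRCm38. Counts summed over all transcripts, which can hold a read more than once, ran from 23383452 to 38382751 per library. Genes were named by a rule: the core subunits, the 5 largest differences each way, uncalled members, the strongest departures from complex I and the extremes of each list. Other genes are named to describe a group, and 1 member is not reported here by name. The members, lists and tests were chosen with earlier results of these data known.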

Additional observations from a re-analysis of the deposited data

How the results depend on the processing

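Between scalings of the counts 20 of the 46 members changed sign, and few reads limited Ndufb4 and Ndufa4l2, which had under 200 counts in each library. The part that reads without a unique place had in the low counts of Ndufb4 was not tested. The members called lower and higher, 10 and 18 in the main test, became 32 and 4 with library totals, 17 and 10 with totals without the 25 transcripts over 1%, and 32 and 5 with limma on log2(RPKM + 0.1, 0.5 or 1). Of all transcripts, 34.4% and 32.2% were called in the main test, and 62.6% and 13.3% with library totals. The shares were 43.7% and 24.3% without the 25 transcripts, and 63.1 to 63.3% and 13.2 to 13.3% with limma. The members' median of 0.12 became -0.63 with library totals, -0.14 without the 25 transcripts, and -0.64, -0.63 and -0.63 with limma at the 3 pseudocounts. Upper-quartile factors gave 15 lower and 15 higher with a median of 0.04, where 37.5% and 29.6% of all transcripts were called, and a minimum of 10 counts per library gave 14 and 16 with a median of 0.06, where 35.5% and 33.4% were. With a log2 fold change over 2 and an unadjusted p under 0.05, 0 were lower and 1 higher, and the departures from complex I of 15 lower and 13 higher became 0 and 1. Of all 24280 transcripts, 8.64% and 7.00% passed this threshold in the main test. In the complex I fit 2469 passed it downwards and 1513 upwards. Leaving out 1 library at a time gave 8 to 12 lower and 15 to 19 higher members, medians of 0.04 to 0.24, and 9 to 16 lower and 9 to 15 higher departures. In these fits 31.0 to 34.7% of all transcripts were called lower and 29.2 to 33.8% higher with TMM. In the complex I fit the shares were 33.8 to 39.5% and 21.8 to 27.3%. The departures were 9 lower without heart replicate 1, where 34.2% of all transcripts were lower. Without heart replicate 2 the departures were 10 lower and 9 higher (33.8% and 22.9% of all transcripts), and the cause was not tested. RPKM summed over transcripts gave medians of 149 in heart and 111 in quadriceps, with reads shared by transcripts counted more than once.

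With a replicate block 8 members were lower and 15 higher (33.7% and 31.1% of all transcripts), with departures of 11 and 9 (37.8% and 23.5%), and the median was 0.12. Same-numbered heart and quadriceps libraries deviated from their group means with correlations of 0.011, -0.11 and -0.032, and differently numbered ones with -0.047 to 0.086. Deviations in different tissues need not correlate even within a mouse, so these values cannot show whether the numbers pair the samples.

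Single members turned sign mostly with library totals and with RPKM, which is scaled to those totals. With library totals and with limma at pseudocounts 0.1, 0.5 and 1, in this order, Ndufa12 went to -0.69, -0.71, -0.71 and -0.71, Ndufs3 to -0.68, -0.69, -0.69 and -0.68, and Ndufs7 to -0.68, -0.68, -0.68 and -0.67. Ndufs5 went to -0.60, -0.61, -0.61 and -0.60, Ndufs6 to -0.56, -0.57, -0.57 and -0.57, Ndufa9 to -0.55, -0.56, -0.56 and -0.56, Ndufaf8 to -0.49, -0.49, -0.48 and -0.47, and Ndufb9 to -0.49, -0.50, -0.49 and -0.49. Ndufb11 went to -0.42, -0.43, -0.43 and -0.42, Ndufb6 to -0.42 in all 4, Ndufv2 to -0.38, -0.40, -0.40 and -0.40, Ndufa6 to -0.31, -0.32, -0.32 and -0.32, and Ndufa4 to -0.29, -0.30, -0.30 and -0.30. Ndufb3 went to -0.23, -0.24, -0.24 and -0.23, Ndufa3 to -0.21, -0.23, -0.23 and -0.23, Ndufb5 to -0.19, -0.20, -0.20 and -0.20, Ndufaf1 to -0.15, -0.17, -0.16 and -0.16, and Ndufa13 to -0.11, -0.12, -0.12 and -0.12.

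With totals without the 25 transcripts, Ndufa12 was at -0.20, Ndufs3 at -0.19, Ndufs7 at -0.18, Ndufs5 at -0.11, Ndufs6 at -0.074, Ndufa9 at -0.059 and Ndufaf8 at -0.0018. Members near 0 also turned with smaller steps. Upper-quartile factors put Ndufa12 at -0.030, Ndufs3 at -0.017 and Ndufs7 at -0.0062, and a minimum of 10 counts per library put Ndufa12 at -0.012 and Ndufs3 at -0.00051. Ndufa2 became 0.021 with DESeq2 and 0.020 with relative log expression factors. Over the fits without 1 library, Ndufs8 ranged from -0.11 to 0.054, Ndufaf4 from -0.16 to 0.018, Ndufab1 from -0.13 to 0.059, Ndufa2 from -0.023 to 0.051, Ndufs3 from -0.016 to 0.20 and Ndufs7 from -0.00045 to 0.19. Without heart replicate 3, Ndufaf4 was at 0.0076, Ndufab1 at 0.024 and Ndufa2 at 0.017. Without quadriceps replicate 2, Ndufaf4 was at 0.018, Ndufab1 at 0.0049, Ndufa2 at 0.019, Ndufs3 at -0.016 and Ndufs7 at -0.00045. Without quadriceps replicate 3, Ndufs8 was at 0.054, Ndufab1 at 0.059 and Ndufa2 at 0.051. None of these turned members was called by edgeR in the main test except Ndufb11, Ndufb6, Ndufv2, Ndufa6, Ndufa4, Ndufb3, Ndufa3, Ndufb5, Ndufaf1 and Ndufa13.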
